A study of Mus musculus with 4 samples.

Results

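In all, 10 genes that bring fatty acids from the blood into muscle were followed in mouse tibialis anterior, a fast-twitch muscle at the front of the shin. They were chosen by their function, with earlier results of these data known. All 10 were found among the 32868 gene names of the deposited per-library values. The genes are Lpl, Gpihbp1, Angptl4, Lmf1, Vldlr, Cd36, Slc27a1, Slc27a4, Fabp3 and Fabp4. Muscle was taken at postnatal day 21 from C57BL/6 mice of 2 genotypes, with 2 libraries each. The Nf1-KO group is labelled Nf1flox/flox/Myf5+ and so carried 2 floxed Nf1 alleles. The Het group is labelled Nf1flox/+/Myf5+ and carried 1 floxed allele, so it is not a wild type, and both groups share the Myf5+ label. In crosses of this kind Myf5+ usually stands for a Cre recombinase driven by Myf5, a gene of muscle precursors. Vessel and immune cells of the same tissue would then lie largely outside the deletion. The label does not name Cre, and the cells that lost Nf1 cannot be told from these whole-muscle values. The labels do not say whether the 2 libraries of a group came from separate animals, so the spread between them may be technical.

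Fatty acids reach a muscle fibre as triglyceride inside lipoproteins and as free acids bound to albumin. Lipoprotein lipase, made by the fibre and by fat cells, is folded with the help of lipase maturation factor 1, carried across the capillary wall by GPIHBP1, and there splits triglyceride until ANGPTL4 inactivates it. The freed acids pass the endothelium and the fibre membrane with the help of CD36 and the transport proteins of the SLC27 family, and FABP proteins carry them through the cytosol. Nf1 encodes neurofibromin, which turns Ras off, and the study's title names its role in muscle growth and metabolic balance.

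All 4 libraries held the transcripts of skeletal muscle at very high level, with the skeletal actin gene Acta1 between 12305 and 15930 RPKM (reads divided by gene length and library depth). Counting depth enters through the authors' deposited table, where the mean normalized counts of 13985 genes summed to 49581081. Libraries of a group differed little: over the 4827 genes with a mean of 5 RPKM or more, their coefficient of variation had a median of 2.02% in Het and 1.91% in Nf1-KO. Nf1 itself held 1.09 and 1.01 RPKM in Het and 0.89 and 0.85 RPKM in Nf1-KO. Its log2 fold change was -0.18 with a limma adjusted p of 0.041, and without scaling between libraries it was -0.13 with a limma adjusted p of 0.094, so this call depends on the scaling. Adding 1 to values near 1 RPKM shrinks the change: the authors' deposited table gave -0.38 with a standard error of 0.11 and an adjusted p of 0.0026, and the ratio of means was 0.829.

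Most of the uptake genes were higher in Nf1-KO muscle. Of the 10 genes, 7 rose (Lpl, Gpihbp1, Angptl4, Cd36, Slc27a1, Fabp3 and Fabp4), 1 fell (Vldlr) and 2 did not pass the test (Slc27a4 and Lmf1). The test was limma on log2(RPKM + 1) across all genes with a Benjamini-Hochberg adjusted p under 0.05. Of all 10690 genes tested, 24.9% were called higher, 25.4% lower and 50.2% in either direction. The median log2 fold change was 0.71 over the 10 genes and 0.00048 over all tested genes. Each of the 10 was above the filter of 0.5 RPKM in every library, the lowest value being 0.75 RPKM. By the values as deposited, the libraries of the 2 groups did not overlap in 9 of the 10 genes, where 77.3% of all tested genes did not overlap. By the authors' deposited table, 8 of the 10 had an adjusted p under 0.05, against 31.6% of its genes. The 8 are those called here. In whole muscle, fewer cells of a type and less RNA per cell cannot be told apart.

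**Figure D1:**
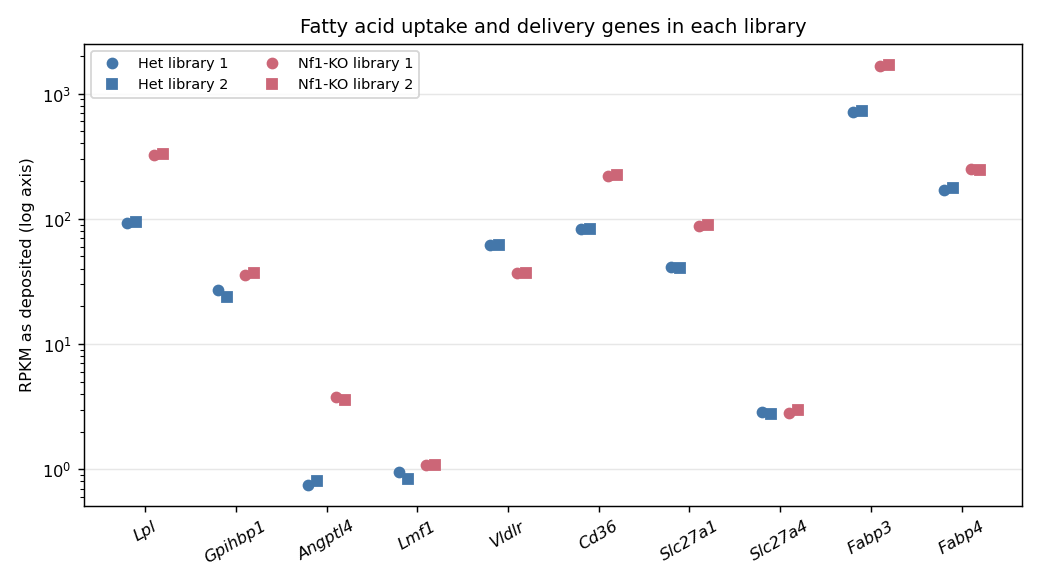
RPKM as deposited (log axis) of the 10 genes in each library, with circles for library 1 and squares for library 2 of a group, Het in blue and Nf1-KO in red. Fabp3 is the highest gene in every library, and Vldlr is the gene whose Nf1-KO points lie clearly below its Het points, at 36.8 and 36.6 against 62.19 and 62.06 RPKM.

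Lpl encodes lipoprotein lipase (chr8:68880491-68907448 in GRCm38) and showed the largest log2 fold change of the 10 with 1 added to each RPKM value; with 0.1 added, in the authors' deposited table and by the ratio of means Angptl4 stood above it. Its level was 93.24 and 93.66 RPKM in Het, against 323.01 and 328.79 RPKM in Nf1-KO. The libraries of a group lay close together and the groups far apart. Means were 93.5 ± 0.297 RPKM (SD, n = 2) in Het and 326 ± 4.09 RPKM in Nf1-KO, a ratio of 3.49. On the log2(RPKM + 1) scale the change was 1.70 (standard error 0.019, 95% interval 1.65 to 1.74, limma adjusted p 1.8e-07). Of all tested genes, 0.196% had a higher log2 fold change. Its mean normalized count over all libraries was 61813 in the authors' deposited table. At that mean the counting error of 1 library is about 0.402%, and it is greater at the lower Het level.

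The partners of the lipase changed less evenly. Gpihbp1, the capillary protein that binds the lipase and holds it in the vessel (chr15:75596628-75599481), held 27.04 and 23.96 RPKM in Het and 35.28 and 36.89 RPKM in Nf1-KO. Both Nf1-KO libraries lay above both Het libraries, while the Het libraries stood further apart than those of Lpl. The ratio of means was 1.41 and the log2 fold change 0.40 (95% interval 0.26 to 0.53, limma adjusted p 0.0018).

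Angptl4, a secreted inhibitor of the lipase whose gene responds to fatty acids through PPAR receptors (chr17:33773750-33781830), was among the least abundant of the 10. It held 0.75 and 0.81 RPKM in Het and 3.79 and 3.60 RPKM in Nf1-KO. That is a ratio of means of 4.74, the highest of the 10 genes, at a low level. Its log2 fold change was 1.34 (95% interval 1.21 to 1.48, limma adjusted p 1.0e-05) with 1 added to each value. With 0.1 added it was 2.02 (limma adjusted p 1.3e-05), and the authors' deposited table gave 2.13 with a standard error of 0.221. Its mean normalized count over all libraries was 197.1. At that mean the counting error of 1 library is about 7.12%, the largest of the 10, and it is greater at the lower Het level.

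Lmf1, the endoplasmic reticulum factor needed for the lipase to fold (chr17:25579085-25662826), held 0.95 and 0.83 RPKM in Het, while each Nf1-KO library had 1.08 RPKM. The Nf1-KO libraries were slightly the higher ones, but the difference did not pass the test, with a log2 fold change of 0.09 (95% interval -0.05 to 0.24, limma adjusted p 0.247). The authors' deposited table gave 0.17 with a standard error of 0.127 and an adjusted p of 0.335.

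Vldlr was the gene that fell. It encodes the very low density lipoprotein receptor, which takes up triglyceride-rich particles and aids their lipolysis (chr19:27216484-27254231). Het libraries held 62.19 and 62.06 RPKM and Nf1-KO libraries 36.8 and 36.6 RPKM. The spread within each group was under 1 RPKM, and the Het mean was 1.69 times the Nf1-KO mean. Vldlr fell by 0.84 on the log2 scale (95% interval -0.89 to -0.78, limma adjusted p 2.2e-06), and 98.4% of all tested genes had a higher log2 fold change. The authors' deposited table gave -0.87 with a standard error of 0.025.

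At the membrane, 2 of 3 genes rose. Cd36, the fatty acid translocase of capillary endothelium and of muscle fibres (chr5:17781690-17888801), held 83.1 and 82.89 RPKM in Het and 220.83 and 222.62 RPKM in Nf1-KO. The groups were separated by far more than the libraries within them. Its ratio of means was 2.67 and its log2 fold change 1.31 (95% interval 1.27 to 1.36, limma adjusted p 3.1e-07).

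Slc27a1 and Slc27a4 encode the fatty acid transport proteins FATP1 and FATP4, which also activate long-chain fatty acids to their coenzyme A esters. Slc27a1 (chr8:71568882-71587302) held 40.95 and 40.61 RPKM in Het and 88.17 and 88.51 RPKM in Nf1-KO, a ratio of means of 2.17 and a log2 fold change of 1.00 (95% interval 0.95 to 1.06, limma adjusted p 8.9e-07). Slc27a4 (chr2:29802634-29817522) held 2.86 and 2.75 RPKM in Het and 2.81 and 2.96 RPKM in Nf1-KO. Its libraries overlapped between the groups. The log2 fold change of Slc27a4 was -0.04 with a 95% interval of -0.17 to 0.09 (limma adjusted p 0.554), and its sign turned without scaling (0.03). The 1.00 of Slc27a1 lies outside that interval.

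**Figure D2:**
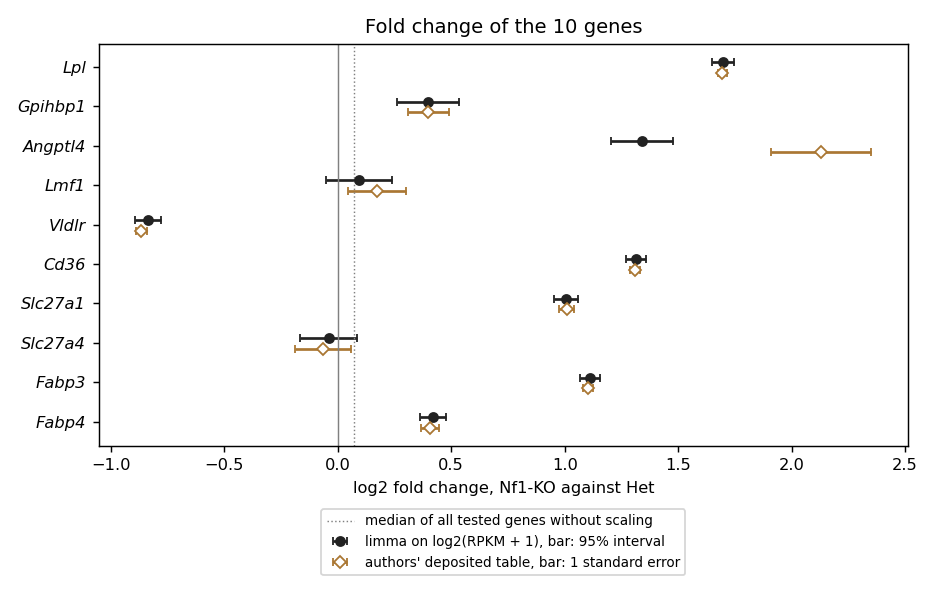
Log2 fold change of Nf1-KO against Het for the 10 genes, from limma on log2(RPKM + 1) with 95% intervals (filled circles) and from the authors' deposited table with 1 standard error (open diamonds); the dotted line is the median of all tested genes without scaling between libraries (0.07). Both sources lie close together for 9 genes, while Angptl4 reads 1.34 and 2.13.

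Promoter sequence was read for the members matched in the RefSeq table of mouse build GRCm38.p6, which held 6 of the 10. Those of 3 are printed, the 250 bases before the annotated start, to set a pair of genes that rose beside the one that fell. None of these windows overlaps an annotated exon of GENCODE M21. They are Cd36 at chr5:17835897-17836146 on the minus strand, Slc27a1 at chr8:71568621-71568870 on the plus strand and Vldlr at chr19:27216234-27216483 on the plus strand, each 5′ to 3′ along the gene, with a match to AGGTCA on either strand in capitals.
Cd36: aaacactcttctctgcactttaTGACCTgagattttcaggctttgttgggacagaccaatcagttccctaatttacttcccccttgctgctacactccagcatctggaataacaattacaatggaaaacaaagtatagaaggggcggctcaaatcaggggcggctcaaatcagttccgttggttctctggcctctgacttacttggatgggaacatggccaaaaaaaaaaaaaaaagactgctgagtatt
Slc27a1: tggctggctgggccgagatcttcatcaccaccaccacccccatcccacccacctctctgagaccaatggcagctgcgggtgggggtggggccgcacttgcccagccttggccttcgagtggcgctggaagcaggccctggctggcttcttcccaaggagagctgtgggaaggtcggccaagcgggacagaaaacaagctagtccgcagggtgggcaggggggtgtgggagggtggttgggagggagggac
Vldlr: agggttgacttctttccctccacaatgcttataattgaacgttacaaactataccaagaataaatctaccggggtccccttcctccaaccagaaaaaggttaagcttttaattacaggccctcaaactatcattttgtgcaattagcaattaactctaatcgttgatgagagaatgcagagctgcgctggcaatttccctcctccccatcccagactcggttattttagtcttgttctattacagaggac
The letters AGGTCA are the core of elements bound by PPAR, ERR and other nuclear receptors. Among the 9 windows of 300 bases for the 6 genes, Cd36 held the single match, on the opposite strand and starting 228 bases before the RefSeq start used for its window. That start lies inside the Cd36 gene as GENCODE draws it, downstream of the gene's outermost start. Promoters of 1 chromosome were left out of the search, and of the 32851 that remained, 16.3% held these letters on either strand. The ERR element TCAAGGTCA, which contains them, was in 0.423% of the same promoters. The PPAR type repeat of AGGNCA spaced by 1 base, which can overlap them, was in 0.381%. Neither was in a window of these 6 genes, which says only that those letters are not within this distance of these starts. In the printed windows G and C made up 43.2% of bases in Cd36, 66.4% in Slc27a1 and 41.6% in Vldlr. Before other annotated starts of the same genes the share was 60.8% and 58.4% in Slc27a1 and 66.4% in Vldlr, so it depends on the start used.

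Of the cytosolic carriers both rose, by different amounts. Fabp3, the fatty acid binding protein of heart and muscle fibres (chr4:130308595-130315463), held 717.28 and 726.92 RPKM in Het and 1648.7 and 1689.24 RPKM in Nf1-KO. It was the 35th most abundant gene name of all. Its ratio of means was 2.31 and its log2 fold change 1.11 (95% interval 1.07 to 1.16, limma adjusted p 4.3e-07). Exons of Zcchc17 and Gm10570 on the opposite strand overlap those of Fabp3, and the strand setting of the counting is not given in the sources used here, so its values may hold reads of these genes. Fabp4, the carrier of fat cells, macrophages and capillary endothelium (chr3:10204088-10208576), held 170.6 and 176.29 RPKM in Het and 249.39 and 246.76 RPKM in Nf1-KO. Again no library of one group reached into the other. Its ratio of means was 1.43 and its log2 fold change 0.42 (95% interval 0.36 to 0.48, limma adjusted p 3.1e-05).

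Levels per length gave a different order of genes in the 2 groups. In Het the order from the top was Fabp3, Fabp4, Lpl, Cd36, Vldlr, Slc27a1, Gpihbp1, Slc27a4, Lmf1 and Angptl4. In Nf1-KO it was Fabp3, Lpl, Fabp4, Cd36, Slc27a1, Vldlr, Gpihbp1, Angptl4, Slc27a4 and Lmf1. Lpl thus stood above Fabp4 in both Nf1-KO libraries and below it in both Het libraries, and Slc27a1 and Vldlr traded places in the same way. Vldlr and Gpihbp1, at 36.7 ± 0.141 and 36.1 ± 1.14 RPKM (SD, n = 2), overlapped in Nf1-KO and had no order there. In Het the last pair in the order were close, with Lmf1 at 0.83 and 0.95 RPKM and Angptl4 at 0.75 and 0.81 RPKM.

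Ratios of RPKM within a library need no scaling between libraries. Lpl over Gpihbp1 was 3.45 and 3.91 in Het, against 9.16 and 8.91 in Nf1-KO. The enzyme's transcript was higher relative to that of its capillary anchor. Lpl over its inhibitor Angptl4 went the other way, from 124.3 and 115.6 in Het to 85.2 and 91.3 in Nf1-KO. Angptl4 held only 0.75 and 0.81 RPKM in Het, so counting error weighs more on this ratio than on the others. Against its folding factor Lmf1, Lpl stood at 98.2 and 112.8 in Het and 299.1 and 304.4 in Nf1-KO. Lpl over Vldlr showed the widest shift, from 1.50 and 1.51 to 8.78 and 8.98, a ratio of means of 5.90. In the cytosol Fabp3 over Fabp4 was 4.20 and 4.12 in Het and 6.61 and 6.85 in Nf1-KO. For the transport proteins, Slc27a1 over Slc27a4 was 14.3 and 14.8 in Het and 31.4 and 29.9 in Nf1-KO. Cd36 over Fabp4 was 0.487 and 0.470 in Het and 0.886 and 0.902 in Nf1-KO. Each of these ratios separated the groups in all 4 libraries. An exact permutation of 2 libraries against 2 gives no p below 0.333, so no p is given for them.

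**Figure D3:**
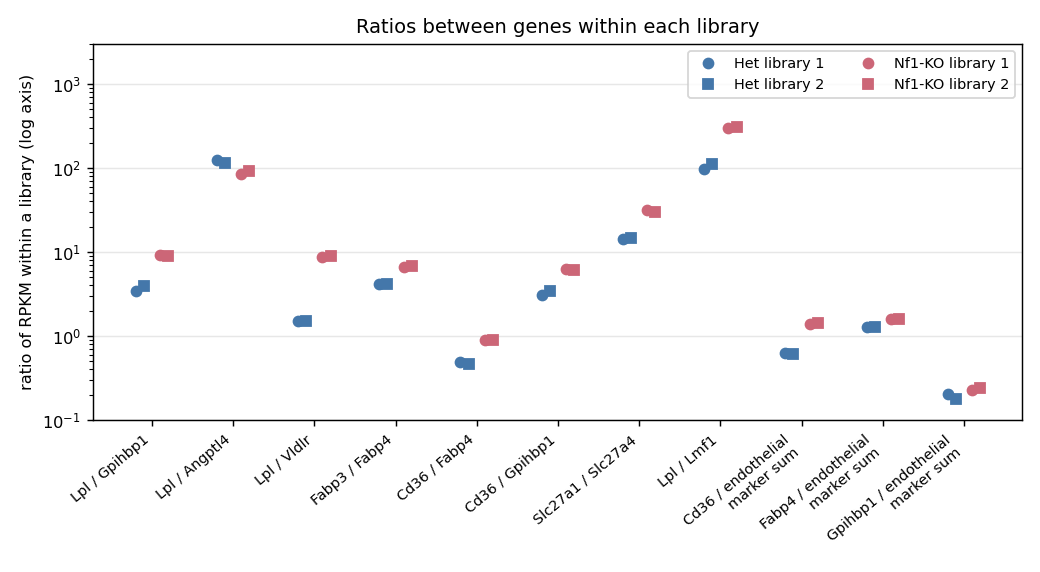
Ratios of RPKM within each library (log axis) between pairs of the genes and against the summed 12 endothelial markers, with circles for library 1, squares for library 2, Het in blue and Nf1-KO in red. Each ratio separates the groups, and Lpl over Vldlr moves most, to 8.78 and 8.98. Lpl over Angptl4 is the one that is lower in Nf1-KO, with Angptl4 at only 0.75 and 0.81 RPKM in Het.

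Beyond the 10 genes, 48 other genes of lipid uptake were read from 6 lists by role. Of these, 33 passed the filter on low values and 15 did not. Among the 33, 15 rose (45.5%, where 24.9% of all tested genes were called higher), 8 fell (25.4% of all tested genes were called lower) and 10 were not called, with a median log2 fold change of 0.11. Without scaling between libraries the split was 20 higher and 5 lower (all tested genes: 35.2% and 17.6%). At an adjusted p under 0.01 it was 9 higher and 4 lower (17.1% and 16.9%). Without Nf1-KO library 1 it was 10 higher and 5 lower (20.8% and 21.5%). Each called gene kept its direction without scaling, but Sel1l, Lrpap1 and Cav2 were then not called (limma adjusted p 0.212, 0.084 and 0.082), while Lmf2, Fabp5, Cavin1, Acsl5 and Ppard were called higher (0.0033 to 0.043).

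In the list of other lipoprotein receptors and their ligand, 3 of 4 tested genes rose and 1 fell. For this and the following lists by role, 24.9% of all tested genes were called higher and 25.4% lower. Apoe, an apolipoprotein by which receptors bind lipoprotein particles, rose from 16.78 and 16.29 to 28.39 and 30.02 RPKM, a log2 fold change of 0.69. Lrp1 and Scarb1 rose by 0.17 and 0.15 on the log2 scale, and Lrpap1, a chaperone of lipoprotein receptors, fell by 0.19.

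Of 6 tested lipase partners, 1 rose and 2 fell. Hspg2, whose product perlecan is a heparan sulphate proteoglycan of basement membranes, fell from 15.43 and 15.58 to 11.48 and 10.65 RPKM (log2 fold change -0.54). Furin, a protease that cuts the lipase and ANGPTL proteins, rose by 0.16, and Sel1l, which acts with Lmf1 on the lipase in the endoplasmic reticulum, fell by 0.15. For Lmf2, a relative of Lmf1, the log2 fold change was 0.11 with a limma adjusted p of 0.179.

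Of 3 tested carriers 2 rose and none fell, while the activating enzymes went both ways. Got2, a mitochondrial aminotransferase that has also been described as a fatty acid binding protein of the plasma membrane, rose from 166.71 and 166.35 to 262.11 and 258.03 RPKM (log2 fold change 0.55). Dbi, the acyl-CoA binding protein, rose by 0.25. Fabp5 held 5.25 and 4.47 RPKM in Het and 7.12 and 5.87 RPKM in Nf1-KO and did not pass (log2 fold change 0.27, limma adjusted p 0.057), and its processed pseudogenes make its counts uncertain. Among the acyl-CoA synthetases, which trap fatty acids inside the cell, Acsl1 rose from 123.11 and 121.4 to 178.76 and 176.37 RPKM (log2 fold change 0.44) and Acsl4 rose by 0.17. In the opposite direction Acsl3 fell from 4.56 and 4.01 to 1.87 and 2.04 RPKM (log2 fold change -0.91) and Acsl6 fell by 0.31. Thus 2 of the 5 synthetases rose and 2 fell.

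Caveolae are membrane pits in which CD36 is found. Of their 7 genes 2 rose and 2 fell, close to the shares of all tested genes called higher (24.9%) and lower (25.4%). Cav1, the caveolin of endothelial and fat cells, was lower by 0.35 on the log2 scale. Cavin4 (listed as Murc), the muscle cavin, was higher by 0.34. Cav3, the caveolin of muscle, rose by 0.11, and Cav2 fell by 0.19.

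Among 8 genes of endothelial routing and PPAR regulation, 5 rose and 1 fell. Ppara, the nuclear receptor that drives fatty acid use, rose from 3.71 and 3.97 to 8.73 and 8.57 RPKM (log2 fold change 0.92, limma adjusted p 2.3e-05). Vegfb, a growth factor from muscle that acts on capillary fatty acid transport, rose from 100.08 and 101.46 to 143.61 and 144.55 RPKM (0.42), and its receptor Flt1 rose by 0.37. Its co-receptor Nrp1 fell by 0.22. Meox2, which with Tcf15 forms a transcription factor pair of heart and muscle capillaries, rose by 0.36. For Ppard and Pparg, the other PPAR receptors, the log2 fold changes were 0.07 and 0.0080, with limma adjusted p of 0.177 and 0.916.

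**Figure D4:**
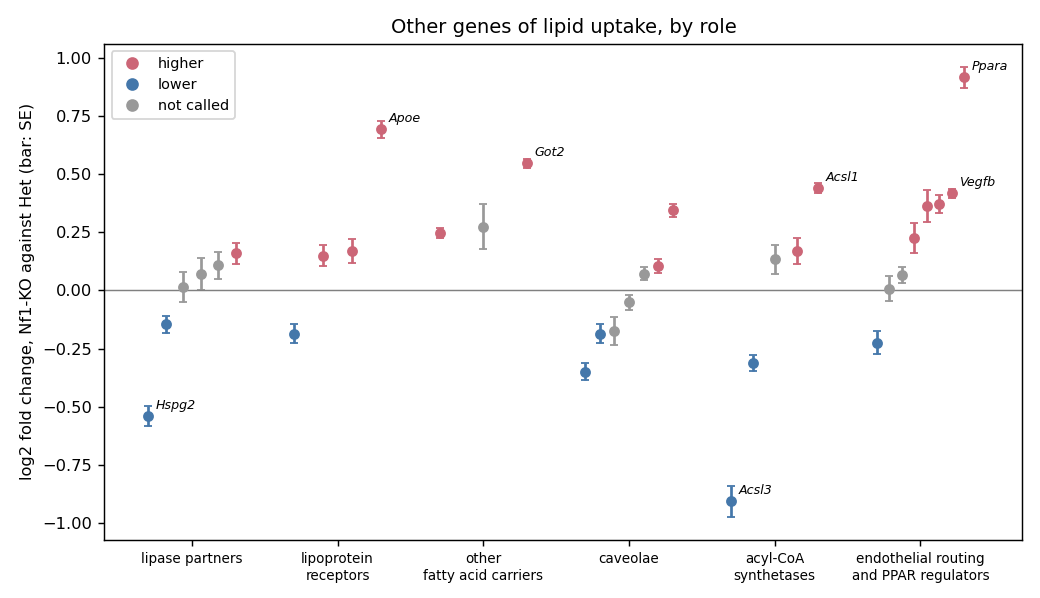
Log2 fold change with its standard error for the 33 tested genes of 6 other lipid uptake lists, coloured by call (red higher, blue lower, grey not called). Ppara (0.92) and Apoe (0.69) are the highest and Acsl3 (-0.91) and Hspg2 (-0.54) the lowest.

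Several of the 10 genes are also expressed by cells other than fibres, so marker lists of those cells were read beside them. The counts of each marker list stand against 24.9% of all tested genes called higher and 25.4% called lower. The 12 endothelial markers summed to 134.06 and 136.15 RPKM in Het and 156.8 and 154.18 RPKM in Nf1-KO, with 5 higher, 2 lower, 5 not called and a median log2 fold change of 0.03. Cdh5 and Pecam1, which define endothelium, had log2 fold changes of 0.0011 (not called) and 0.09 (called). The list did not move as one: Eng rose by 0.62 and Egfl7 by 0.34, ratios of means of 1.70 and 1.37, while Kdr fell by 0.25. The ratios of Fabp4 and Gpihbp1, 1.43 and 1.41, lie between those of Egfl7 and Eng. Cd36 over this sum was 0.620 and 0.609 in Het and 1.41 and 1.44 in Nf1-KO. Fabp4 over it was 1.27 and 1.29 against 1.59 and 1.60, and Gpihbp1 over it was 0.202 and 0.176 against 0.225 and 0.239. Relative to this sum, Fabp4 and Gpihbp1 in Nf1-KO were 1.24 and 1.23 times their Het level, and Cd36 was 2.32 times. Fabp4 and Cd36 are also expressed outside the endothelium, so for them this is not a level per endothelial cell.

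Of 8 adipocyte markers 4 rose and 3 were below the filter. Adipoq and Plin1, which define fat cells, were low in all libraries: Adipoq held 1.11 and 1.31 RPKM in Het and 0.95 and 1.05 RPKM in Nf1-KO, and Plin1 held at most 0.41 RPKM. Of the other fat cell genes at low level, Cidec rose from 0.52 and 0.51 to 0.95 and 1.03 RPKM (log2 fold change 0.35, limma adjusted p 0.0029), while Lep, below the filter, held 0.21 and 0.22 RPKM in Het and 0.03 and 0.05 RPKM in Nf1-KO. Thrsp rose by 0.21 on the log2 scale. The summed list was 62.34 and 63.94 RPKM in Het and 142.37 and 146.17 RPKM in Nf1-KO, mostly through Plin4, which muscle also expresses and which rose from 42.62 and 43.49 to 108.13 and 111.8 RPKM, and Cfd, at 5.87 and 6.80 against 17.34 and 17.71 RPKM.

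Macrophage and leukocyte markers, summed over 11 genes, were 17.4 and 16.44 RPKM in Het and 39.36 and 39.8 RPKM in Nf1-KO. Of these 6 rose, 1 was not called and 4 were below the filter, Adgre1 being listed at 0 in all 4 libraries. Lyz2 was the most abundant of the list, at 7.47 and 7.38 against 24.35 and 24.62 RPKM, and the rise of the sum came mostly from it. The gene not called was Mrc1, at 1.04 and 0.96 RPKM in Het and 0.97 and 1.19 RPKM in Nf1-KO. Below the filter, Aif1 was lower in Nf1-KO, at 0.43 and 0.1 against 0.07 and 0.09 RPKM, while Cd14 and Ptprc were higher. Lpl, Cd36 and Fabp4 are also expressed by macrophages. Pericyte and smooth muscle markers summed to 75.74 and 77.16 RPKM in Het and 99.69 and 100.68 RPKM in Nf1-KO, with 2 of 5 higher.

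Markers of muscle fibres differed between the groups as well. Of 6 skeletal muscle genes 5 fell and 1 rose (Des, by 0.17 on the log2 scale), and their sum in Nf1-KO was 0.798 and 0.793 of the Het mean. Myh4, the myosin of the fastest fibres, fell from 6766.78 and 7014.79 to 3508.18 and 3427.52 RPKM (log2 fold change -1.09, also lower without scaling). Acta1 fell by 0.45, while the likewise abundant Tnnt3 and Ckm fell less, by 0.29 and 0.17. Of 8 markers of oxidative fibres 7 rose, among them myoglobin (Mb) from 2932.78 and 2906.07 to 5099.08 and 5135.09 RPKM. Their rises were uneven, with ratios of means from 1.20 (Myl3) to 4.12 (Casq2). Myh7 was not called and pointed the other way, at 1.53 and 1.66 RPKM in Het and 1.47 and 1.36 RPKM in Nf1-KO. Its log2 fold change was -0.16 (limma adjusted p 0.066). Both the fibre markers and the uptake genes held some that rose and some that fell. The part that fibre type, macrophages or vessel cells have in the changes of the 10 genes was not tested.

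**Figure D5:**
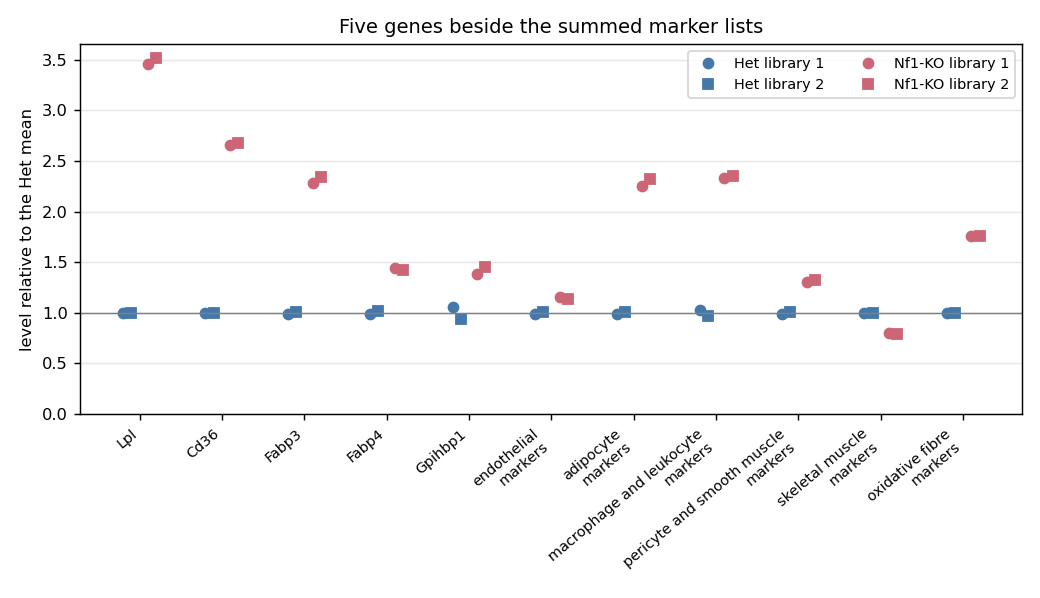
Level in each library relative to the Het mean (linear axis from 0) for 5 of the genes and for the summed RPKM of 6 marker lists, with circles for library 1, squares for library 2, Het in blue and Nf1-KO in red. Endothelial markers stand at 1.16 and 1.14 in Nf1-KO, Fabp4 at 1.44 and 1.42, and Lpl at 3.46 and 3.52.

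The genes whose pattern over the 4 libraries was most like that of Lpl were sought among 4820 others of at least 5 RPKM, by the distance between gene-centred log2 values. The 5 nearest were Barx2, Glul, Sik1, Sh3rf2 and Plin5, at distances of 0.040, 0.082, 0.082, 0.094 and 0.122. Plin5, a lipid droplet coat protein of oxidative tissue, held 16.3 and 15.97 RPKM in Het and 53.42 and 53.6 RPKM in Nf1-KO. Glul, which encodes glutamine synthetase, held 44.78 and 45.25 against 151.37 and 149 RPKM. With 4 libraries in 2 groups, such a likeness mainly reflects a fold change of similar size.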

How the data were processed

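RNA was sequenced from tibialis anterior muscle, with 2 Het and 2 Nf1-KO libraries, made from total RNA with a TruSeq v2 kit per the labels' protocols. STAR 2.4.2a, DESeq2 and build mm9 are named in the submitters' processing notes. The authors deposited 1 RPKM value per gene row and library, reads that they divided by gene length and library depth; the header names no unit, and this was read from the values. The authors' deposited table holds a signal value (the mean normalized count), a log2 fold change with its standard error, a test score and the p-value, raw and adjusted, of each gene, with the column layout of DESeq2 per the file headers. The counting program, the annotation, the strand setting and the design of that table are not given in the sources used here.

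Of 34682 rows, 33 named by a number were left out and of rows marked as copies the most abundant was used, which gave 32868 names. Of the rows, 44.7% were listed at 0 in all libraries. Libraries were scaled by a trimmed mean of their log ratios to the mean library, unweighted (trimmed at each end: 30% by ratio, 5% by abundance; factors 0.969, 0.967, 1.03 and 1.03). The test was limma 3.58.1 (R 4.3.3) with a variance trend and no covariate. It was run on log2(RPKM + 1) for genes that reached 0.5 RPKM in 2 or more libraries, and the Benjamini-Hochberg adjustment ran over all 10690 of them with a threshold of 0.05. Fold changes on this scale understate the change of low genes. The test step was tried on simulated data with no scaling and no filter applied, so those steps were not covered. Without scaling, the median log2 fold change of tested genes was 0.07, and 66.6% in place of 49.5% of called genes were higher. Ratios of means, means and SD use the values as deposited.

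The genes, lists and tests were chosen with earlier results of these data known. All 10 members are named. From each other list of uptake genes came the called genes of at least 1 RPKM with the largest changes (up to 4 per role). Some of the most abundant markers, genes at 0, some genes below the filter and the 5 genes nearest to Lpl were named too. Further genes were chosen after their values were seen. They are Lmf2, Fabp5, Cavin1, Acsl5, Ppard, Pparg, Scarb1, Nrp1, Tcf15, Eng, Egfl7 and Kdr. Adipoq, Plin1, Cidec, Lep, Mrc1, Aif1, Cd14, Ptprc, Myh4, Des and Myh7 were chosen in the same way. A pair of genes of the receptor list is not reported here. Gene positions are GENCODE M21 (GRCm38) and promoters RefSeq (GRCm38.p6), not mm9, and no coordinate was converted. Counting errors are the Poisson error of the mean normalized count over all libraries and cover counting alone. They are larger in the group with the lower level. Alternatives were the pseudocount, filter, scaling, variance trend, threshold, replicate block, copies and leaving out each library.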

Additional observations from a re-analysis of the deposited data

How the results depend on the processing

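Under 14 alternative settings 231 of 236 values kept their direction and their side of the threshold or, for counts, stayed within 1.5 times. The 7 higher and 1 lower of the 10 genes were called in every setting, except that 6 were higher when 1 RPKM was required of each library, since Angptl4 and Lmf1 were then not tested. Slc27a4 turned from -0.04 to 0.0299 (limma adjusted p 0.653) without scaling, and it was not called in any setting (adjusted p 0.456 to 0.956). At an adjusted p under 0.01, the other uptake genes gave 9 higher and 4 lower in place of 15 and 8, and without scaling 20 and 5, with Sel1l, Lrpap1 and Cav2 no longer called lower. Without scaling, 3760 genes were higher and 1883 lower. Gpihbp1 ran from 0.31 (without Het library 2) to 0.49 (unscaled), with adjusted p from 4.3e-04 to 0.033. Angptl4 ran from 1.31 to 2.02, the latter with a pseudocount of 0.1.

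Same-numbered libraries did not deviate together (correlation across genes -0.018). In the fit with the replicate block, 5235 genes were called in place of 5371, with 7 higher and 1 lower among the 10 genes and 15 higher and 9 lower among the other uptake genes. Leaving out each library in turn gave 4235 to 4471 called genes, 10 to 14 higher and 5 to 8 lower other uptake genes (5 without Nf1-KO library 1); a group of 1 library is then assumed to vary like the other group. With 2 libraries per group, the calls depend on limma's pooling of variance over genes.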

Other observations

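Some genes of lipid delivery lay below the filter on low values and were not tested. Apoc1, an apolipoprotein that holds back lipolysis, held 0.05 and 0.06 RPKM in Het and 0.38 and 0.39 RPKM in Nf1-KO. Slc27a3, a further transport protein of the Slc27 family, held 0.36 and 0.23 RPKM in Het and 0.43 and 0.57 RPKM in Nf1-KO. Apoc2, the activator of lipoprotein lipase, and Apoa5 were listed at 0 in all 4 libraries, as were Fabp1 and Fabp2, the carriers of liver and gut. Slc27a2, Slc27a5 and Slc27a6 held at most 0.04 RPKM in any library.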
